A study of Homo sapiens with 6 samples.

Results

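The genes described here are 35 DNA replication genes that cycling cells switch on as they pass from G1 into S phase. They were taken by symbol from the gene count table: all 35 were found among its 52088 entries, and all 35 were among the 20746 genes with enough counts to be tested. The RNA came from K562, a human erythroleukaemia cell line that grows in suspension, in 3 groups of 2 libraries. In PAX6_Ta KO cells the ultra-conserved non-coding element PAX6_Tarzan had been deleted, and in PBX3_Cl KO cells the element PBX3_Claudia. Deletion used a plasmid that carried Cas9 and a pair of guide RNAs, then puromycin selection, picking of single clones, PCR and Sanger sequencing. The Control group carries the genotype label WT. The labels do not say whether Control cells went through transfection, puromycin or cloning, so the deletion, the editing procedure and the choice of a clone cannot be told apart in a comparison with Control. The count table gives both libraries of a knockout 1 line name, and no source used here says that the 2 libraries of a group were separate cultures, so the p-values below measure only the spread between libraries, which may be technical. The elements are non-coding and gene counts do not measure their deletion.

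A cell licenses its replication origins in G1. The origin recognition complex, CDC6 and CDT1 load the MCM2 to MCM7 ring onto DNA, and CDC45 and the GINS complex later turn the ring into the active helicase. DNA polymerases with their sliding clamp PCNA then copy the strands, and chromatin assembly factor 1 packs the new DNA into nucleosomes. Much of this gene set is under E2F transcription factors, which the retinoblastoma protein holds back until cyclin D and cyclin E kinases release them.

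Because the genes share this control, the letters around their start sites are shown first. RefSeq windows of 300 bases on GRCh38.p14 (250 before and 50 after the start) were found for 31 of the 35 genes. An E2F word (TTTCGCGC, TTTGGCGC, TTTCCCGC or TTTGCCGC, on either strand) stood in the windows of 18 of these 31 genes, or 58.1%, while 3.99% of 27305 genes with a window and 3.31% of all 35116 windows held one. The word was found in 14 of 39 other replication protein genes (35.9%) and in 2 of 20 G2/M genes (10.0%). The pentamer CCAAT (either strand), which no E2F word contains, stood in 19 of the 31 (61.3%), in 39.7% of all genes, and in 17 of the 20 G2/M genes (85%). A match describes the letters of the window and is not a measured binding site. The first windows below are 30 bases long and show E2F words, in capitals, in genes of the ring, the loader, the clamp and the E2F family itself. The sequences read 5′ to 3′ along the gene's strand.
MCM2 (chr3:127598402-127598431, + strand): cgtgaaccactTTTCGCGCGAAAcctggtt
MCM3 (chr6:52284728-52284757, - strand): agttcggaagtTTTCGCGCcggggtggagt
MCM7 (chr7:100101388-100101417, - strand): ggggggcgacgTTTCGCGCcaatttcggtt
CDC6 (chr17:40287875-40287904, + strand): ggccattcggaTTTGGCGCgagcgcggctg
PCNA (chr20:5126663-5126692, - strand): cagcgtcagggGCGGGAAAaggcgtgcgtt
RFC3 (chr13:33818083-33818112, + strand): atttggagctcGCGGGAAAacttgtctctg
POLE2 (chr14:49688201-49688230, - strand): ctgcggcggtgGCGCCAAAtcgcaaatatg
E2F2 (chr1:23531257-23531286, - strand): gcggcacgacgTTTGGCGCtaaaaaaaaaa
MCM2 carries the palindrome formed by the word and its reverse complement. The 250 bases upstream of MCM6 hold 4 overlapping word matches, the most clustered case, again in capitals.
MCM6 (chr2:135876444-135876693, - strand): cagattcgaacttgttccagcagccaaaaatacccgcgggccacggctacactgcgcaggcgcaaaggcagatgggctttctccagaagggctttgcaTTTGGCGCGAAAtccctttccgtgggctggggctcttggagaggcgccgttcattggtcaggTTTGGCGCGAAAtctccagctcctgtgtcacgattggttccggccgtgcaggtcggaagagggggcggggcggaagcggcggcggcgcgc
The windows of USP1, ORC1 and CHAF1A, genes on which the comparisons below turn, held none of these E2F words. Only exact matches were counted, so the lack of a word does not show that a window lacks an E2F binding site. Each held CCAAT, in capitals here as found on either strand.
USP1 (chr1:62436156-62436185, + strand): agcgccttgtctcATTGGatggccctaggc
ORC1 (chr1:52404430-52404459, - strand): cggggccacgccgATTGGcgcgaagttttc
CHAF1A (chr19:4402439-4402468, + strand): cagctcctcccagCCAATgacaggcctccg
Members with and without the word lay close together in both comparisons. The 18 genes with the word had a median log2 fold change against Control of -0.05 in PAX6_Ta KO and -0.05 in PBX3_Cl KO. The 13 genes with a window but no word had medians of -0.002 and 0.08.

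Library totals ran from 45912044 to 60908470 counts, and the 35 genes were well covered, from 483 counts (CCNE2) to 51716 counts (MCM7) in a library. Erythroid genes marked every group as K562. GATA1, the erythroid master factor, had group means of 278 (Control), 248 (PAX6_Ta KO) and 337 (PBX3_Cl KO) CPM, where CPM are counts scaled to the size of the library by TMM. KLF1, another erythroid factor, had means of 272, 258 and 385 CPM. In PAX6_Ta KO the globins HBE1, HBG2 and HBZ were called higher. HBE1 and HBG2, on 11p, were no longer called with the median of that arm taken out (edgeR adjusted p = 0.456 and 0.317). The 6 fibroblast markers summed to 3.02 to 133 CPM, with LUM at 0 in every library. COL1A1 and POSTN were called higher and COL1A2 lower in PAX6_Ta KO, COL3A1 higher and COL1A2 lower in PBX3_Cl KO. The 6 lymphoid markers summed to 5.04 to 10.7 CPM with MS4A1 at 0, and the 6 myeloid markers to 6.0 to 19.8 CPM. The 6 epithelial markers summed to 652 to 2025 CPM, carried by keratins, with KRT5 at 0. EPCAM was called lower and KRT18 and KRT19 higher in PAX6_Ta KO, and KRT19 higher in PBX3_Cl KO. The part of these markers in the results below was not tested. The 2 PBX3_Cl KO libraries differed from each other more than those of the other groups (chi-square per degree of freedom over genes of 121 against 47.1 in Control and 38.8 in PAX6_Ta KO).

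The replication genes had few calls in either knockout. Against Control, no replication gene was called higher in PAX6_Ta KO, where 7.21% of all tested genes were called higher, and 1 was called lower, where 4.21% of all genes were. That gene was USP1. In PBX3_Cl KO none of the 35 was called in either direction, against a background of 6.28% of genes called higher and 2.69% lower. At an unadjusted p below 0.05, 1 gene was higher (CHAF1A) and none lower in PBX3_Cl KO, where 2609 and 1467 of all 20746 genes were. In PAX6_Ta KO 3 were lower at that unadjusted threshold and none higher, where 2105 and 2605 of all genes were. DESeq2 called none of the 35 in PBX3_Cl KO, where it called 1314 of all genes higher and 568 lower. With the replicate number as a block, edgeR called 3 lower in PAX6_Ta KO (USP1, ORC1 and RPA2), beside 1520 of all genes. It called 1 higher in PBX3_Cl KO (CHAF1A), beside 1922 of all genes. A gene was called where the edgeR quasi-likelihood test gave a Benjamini-Hochberg adjusted p below 0.05 over all 20746 genes.

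The sizes of the differences bound what these libraries could hide. The 35 genes had a median log2 fold change of -0.05 (PAX6_Ta KO) and 0.003 (PBX3_Cl KO), beside medians of -0.02 and -0.01 over all tested genes. It ran from -0.72 to 0.44 in PAX6_Ta KO and from -0.31 to 0.55 in PBX3_Cl KO. In PAX6_Ta KO 32 of the 35 differed from Control by less than 0.5 on the log2 scale, and 34 did in PBX3_Cl KO. The unadjusted 95% interval lay within a 2-fold change either way for 32 genes in PAX6_Ta KO and for all 35 in PBX3_Cl KO. The standard errors of the log2 fold changes ran from 0.19 to 0.28, so small changes of a member were not detectable with these libraries. In bulk RNA, fewer cells in S phase and less RNA per cell cannot be told apart. By role, the medians ran from -0.22 (helicase activation) to 0.24 (cyclins and E2F factors) in PAX6_Ta KO, and from -0.16 (polymerases and primase) to 0.21 (cyclins and E2F factors) in PBX3_Cl KO. The plot of each gene's change is divided by these roles.

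Groups of 2 libraries often fail to overlap without a difference, so that count is read against all genes. In PAX6_Ta KO both libraries lay above both Control libraries for 8 of the 35 genes (22.9%), where 27.0% of all tested genes did, and below for 10 (28.6%), where 28.0% did. In PBX3_Cl KO both lay above for 6 (17.1%), against 23.5% of all genes, and below for 1 (2.9%), against 20.6%. The gene below in PBX3_Cl KO was POLE2. The shares were near or under the background in each direction.

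Levels between genes were compared per length, as CPM per kilobase of the canonical transcript. MCM7 was the highest of the 35 and CCNE2 the lowest in every group, at 310.5 ± 54.6 and 4.19 ± 0.1 CPM per kilobase in Control (SD, n = 2). Below MCM7 in Control came CDC45 at 243 ± 37, PCNA at 185 ± 23.8, CCND3 at 169 ± 12.7, MCM3 at 163 ± 30.2 and MCM4 at 158 ± 18.9. At the low end stood GINS3 at 15.8 ± 0.9 and POLE2 at 13.0 ± 0.2. Of the 34 steps between neighbours in the Control order, 9 separated genes whose libraries did not overlap, and 25 did not, so most of the order among neighbours is not resolved. ORC1 stood at rank 13 in Control and rank 20 in PAX6_Ta KO, and USP1 moved from rank 16 to rank 24. They stood at rank 14 and rank 17 in PBX3_Cl KO.

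Of the 10 licensing genes, none passed the test in either knockout. The MCM2 to MCM7 subunits, which form the ring in equal numbers, had log2 fold changes from -0.16 (MCM3) to 0.18 (MCM5) in PAX6_Ta KO. In PBX3_Cl KO they ran from -0.09 (MCM6) to 0.37 (MCM7). MCM6 was the lowest and MCM7 the highest of the 6 per length in every library, as the plot of the ring subunits shows. The ratio of MCM7 to MCM6 per length was 7.06 and 5.89 in the Control libraries, 6.99 and 5.94 in PAX6_Ta KO, and 8.66 and 9.37 in PBX3_Cl KO. MCM7 overlaps the gene AP4M1, and the sources used here do not say whether counting used strand, so reads of the pair may be shared.

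MCM7 was counted 51716 and 33875 times in the Control libraries, 39696 and 34220 times in PAX6_Ta KO, and 50132 and 38567 times in PBX3_Cl KO. These are 861 and 671, 826 and 650, and 1137 and 842 CPM. The groups overlapped, except that both PBX3_Cl KO libraries lay above both PAX6_Ta KO ones. Against Control, MCM7 had a log2 fold change of -0.05 (SE 0.25, edgeR adjusted p = 0.947) in PAX6_Ta KO and 0.37 (SE 0.25, edgeR adjusted p = 0.495) in PBX3_Cl KO. Leaving out 1 library at a time moved the PBX3_Cl KO value between 0.10 and 0.58, always with an adjusted p above the threshold.

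ORC1, the large subunit of the origin recognition complex, was the licensing gene with the lowest value in PAX6_Ta KO. It was counted 10814 and 8047 times in Control, 5954 and 5535 times in PAX6_Ta KO, and 8296 and 6963 times in PBX3_Cl KO. In CPM it stood at 180.1 and 159 in Control, at 124 and 105 in PAX6_Ta KO, and at 188 and 152 in PBX3_Cl KO. Both PAX6_Ta KO libraries were below the other 4, while PBX3_Cl KO straddled Control. The log2 fold change in PAX6_Ta KO was -0.57 (SE 0.20, edgeR adjusted p = 0.103), short of the threshold. With the replicate number as a block it was -0.57 with an adjusted p of 0.018 from edgeR, past the threshold. In PBX3_Cl KO the log2 fold change of ORC1 was 0.003 (edgeR adjusted p = 0.998). ORC6, another subunit, had log2 fold changes of 0.05 and 0.28. The loaders CDC6 and CDT1 had values of 0.11 and 0.28 in PAX6_Ta KO and -0.03 and 0.24 in PBX3_Cl KO, none past the test. CDT1 differed widely between the PBX3_Cl KO libraries, at 119 and 209 CPM.

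None of the 5 helicase activation genes passed the test. In PAX6_Ta KO all 5 had values below 0, from -0.01 for GINS1 to -0.34 for CDC45, the protein that joins the ring at firing. CDC45 stood at 506 and 408 CPM in Control, 386 and 334 in PAX6_Ta KO, and 440 and 360 in PBX3_Cl KO. The PAX6_Ta KO libraries of CDC45 did not overlap Control, and its log2 fold change there was -0.34 (SE 0.22, edgeR adjusted p = 0.417). MCM10, which helps the helicase start, and GINS3 also had both PAX6_Ta KO libraries below Control, at log2 fold changes of -0.13 and -0.22. In PBX3_Cl KO the values ran from -0.19 (CDC45) to 0.17 (MCM10).

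The 4 polymerase and primase genes gave no call in the fit with all libraries. POLA1 and PRIM1 belong to the complex that lays down primers, and POLE and POLE2 to the leading-strand polymerase. In PBX3_Cl KO all 4 had values below 0, from -0.12 (PRIM1) to -0.31 (POLE2). POLE2 was counted 1312 and 1124 times in Control, 1165 and 1338 times in PAX6_Ta KO, and 958 and 633 times in PBX3_Cl KO, or 21.9 and 22.3, 24.3 and 25.4, and 21.7 and 13.8 CPM. The PBX3_Cl KO libraries both lay below Control, the first by 0.2 CPM. POLE2 had a log2 fold change of 0.17 (SE 0.23, edgeR adjusted p = 0.765) in PAX6_Ta KO and -0.31 (SE 0.23, edgeR adjusted p = 0.553) in PBX3_Cl KO.

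The 2 PBX3_Cl KO libraries parted most for PRIM1, the catalytic primase subunit. PRIM1 stood at 54.1 and 48.1 CPM in Control, 67.9 and 58.2 in PAX6_Ta KO, and 63.3 and 30.6 in PBX3_Cl KO. Replicate 1 of PBX3_Cl KO was above both Control libraries and replicate 2 below both. The log2 fold change of PRIM1 in PBX3_Cl KO was -0.12 with both libraries. Without PBX3_Cl KO replicate 1 it was -0.78 and called (edgeR adjusted p = 0.043), and without replicate 2 it was 0.32 (edgeR adjusted p = 0.350). The value for PRIM1 therefore rested on which library was kept.

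Of the clamp, clamp loader and single-strand binding genes, none of 5 passed the test in either knockout. PCNA, the sliding clamp, had log2 fold changes of 0.06 in PAX6_Ta KO and -0.16 in PBX3_Cl KO. The clamp loader subunits RFC4 and RFC5 had values of -0.07 and 0.12 in PAX6_Ta KO and -0.27 and 0.02 in PBX3_Cl KO. RFC3, another subunit, was counted 3245 and 3076 times in Control, 2089 and 2375 times in PAX6_Ta KO, and 2774 and 1738 times in PBX3_Cl KO. These are 54.1 and 60.9, 43.5 and 45.1, and 62.9 and 37.9 CPM. Both PAX6_Ta KO libraries of RFC3 were below Control, and those of PBX3_Cl KO fell on either side of all others. The log2 fold change was -0.38 (SE 0.24, edgeR adjusted p = 0.407) in PAX6_Ta KO and -0.19 (SE 0.23, edgeR adjusted p = 0.767) in PBX3_Cl KO.

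RPA2, a subunit of the complex that covers single-stranded DNA, was counted 9232 and 6074 times in Control, 5074 and 4551 times in PAX6_Ta KO, and 7044 and 5136 times in PBX3_Cl KO. Its levels were 154 and 120.3 CPM in Control, 106 and 86.4 in PAX6_Ta KO, and 160 and 112 in PBX3_Cl KO. Both PAX6_Ta KO libraries were below the other 4. RPA2 had a log2 fold change of -0.51 (SE 0.23, edgeR adjusted p = 0.202) in PAX6_Ta KO, short of the threshold. It was -0.51 with an adjusted p of 0.033 from edgeR with the replicate block. In PBX3_Cl KO the log2 fold change was -0.01 (edgeR adjusted p = 0.991).

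FEN1 and LIG1 trim and seal Okazaki fragments, and neither passed the test. FEN1 was counted 16121 and 9344 times in Control, 13076 and 11350 times in PAX6_Ta KO, and 14074 and 11267 times in PBX3_Cl KO. Its levels were 269 and 185 CPM, 272 and 216 CPM, and 319 and 246 CPM. The groups overlapped, and the Control libraries were the furthest apart. FEN1 had a log2 fold change of 0.10 (SE 0.24, edgeR adjusted p = 0.882) in PAX6_Ta KO and 0.32 (SE 0.24, edgeR adjusted p = 0.563) in PBX3_Cl KO. LIG1 had values of 0.01 and 0.001.

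The cyclins and E2F factors leaned upward in PBX3_Cl KO without a call. All 5 had values above 0 there, from 0.02 (CCNE2) to 0.38 (E2F2). CCND3, a D-type cyclin, had log2 fold changes of 0.24 in both knockouts, and CCNE1 of -0.002 and 0.21. CCNE2, the least abundant member, was counted 687 and 554 times in Control, 695 and 839 times in PAX6_Ta KO, and 534 and 483 times in PBX3_Cl KO. That is 11.4 and 11 CPM in Control, 14.5 and 15.9 in PAX6_Ta KO, and 12.1 and 10.5 in PBX3_Cl KO. Both PAX6_Ta KO libraries of CCNE2 lay above the other 4. The log2 fold change was 0.44 (SE 0.22, edgeR adjusted p = 0.267) in PAX6_Ta KO and 0.02 (SE 0.22, edgeR adjusted p = 0.989) in PBX3_Cl KO. CCNE1 exceeded CCNE2 in CPM by 2.65 and 3.02 times in Control, by 2.26 and 1.93 times in PAX6_Ta KO, and by 3.31 and 3.14 times in PBX3_Cl KO. The overlapping coding genes INTS8 and NDUFAF6 may share reads with CCNE2.

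E2F1 and E2F2 are activators of the set. E2F1 stood at 54.6 and 42.3 CPM in Control, 64.9 and 59.1 in PAX6_Ta KO, and 51.0 and 61.0 in PBX3_Cl KO, with log2 fold changes of 0.36 (edgeR adjusted p = 0.346) and 0.21 (edgeR adjusted p = 0.683). E2F2 was counted 4872 and 4252 times in Control, 3227 and 3451 times in PAX6_Ta KO, and 3809 and 5879 times in PBX3_Cl KO. In CPM it stood at 81.2 and 84.2 in Control, 67.2 and 65.5 in PAX6_Ta KO, and 86.4 and 128 in PBX3_Cl KO. PAX6_Ta KO was the lowest group and PBX3_Cl KO the highest, with no overlap among the 3. E2F2 had a log2 fold change of -0.32 (SE 0.21, edgeR adjusted p = 0.452) in PAX6_Ta KO and 0.38 (SE 0.21, edgeR adjusted p = 0.386) in PBX3_Cl KO. The ratio of E2F2 to E2F1 in CPM was 1.49 and 1.99 in Control, 1.04 and 1.11 in PAX6_Ta KO, and 1.69 and 2.10 in PBX3_Cl KO, so that it was lowest in PAX6_Ta KO.

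USP1, which removes ubiquitin from PCNA, was the only one of the 35 called against Control. It was counted 9757 and 8327 times in Control, 4859 and 5104 times in PAX6_Ta KO, and 7575 and 6113 times in PBX3_Cl KO. Its levels were 163 and 165 CPM in Control, 101 and 96.9 in PAX6_Ta KO, and 172 and 134 in PBX3_Cl KO. The replicates of Control and of PAX6_Ta KO were each close, and both PAX6_Ta KO libraries lay below the other 4. The log2 fold change in PAX6_Ta KO was -0.72 (SE 0.20, edgeR adjusted p = 0.033), a level 0.605 times that of Control. It was -0.10 (SE 0.20, edgeR adjusted p = 0.869) in PBX3_Cl KO. USP1 kept its size in PAX6_Ta KO, at -0.69 to -0.76, when any 1 library was left out, but lost its call without Control replicate 1 (edgeR adjusted p = 0.141), Control replicate 2 (0.156), PAX6_Ta KO replicate 1 (0.195) or PAX6_Ta KO replicate 2 (0.230). The call also ended with the median of its chromosome arm taken out, described further on. WDR48, the partner that activates USP1, was among the other replication proteins counted below and was not called in PAX6_Ta KO.

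CHAF1A and CHAF1B are subunits of chromatin assembly factor 1. CHAF1A was counted 13388 and 9165 times in Control, 9043 and 9137 times in PAX6_Ta KO, and 12683 and 13968 times in PBX3_Cl KO. In CPM it stood at 223 and 181 in Control, 188 and 174 in PAX6_Ta KO, and 288 and 305 in PBX3_Cl KO. Both PBX3_Cl KO libraries were above the other 4, and PAX6_Ta KO overlapped Control. CHAF1A had a log2 fold change of 0.55 (SE 0.20, edgeR adjusted p = 0.125) in PBX3_Cl KO and -0.16 (SE 0.20, edgeR adjusted p = 0.739) in PAX6_Ta KO. With the replicate block the PBX3_Cl KO value was 0.56, with an adjusted p of 0.036 from edgeR, past the threshold. CHAF1B did not follow: it stood at 107 and 85.3 CPM in Control, 106 and 88.2 in PAX6_Ta KO, and 102 and 101 in PBX3_Cl KO. CHAF1A exceeded CHAF1B in CPM by 2.09 and 2.13 times in Control, by 1.78 and 1.97 times in PAX6_Ta KO, and by 2.83 and 3.02 times in PBX3_Cl KO. CHAF1A overlaps the coding gene UBXN6, and CHAF1B overlaps MORC3, so reads may be shared in both. TYMS, which makes thymidylate, had log2 fold changes of 0.16 in PAX6_Ta KO and -0.26 in PBX3_Cl KO, where its libraries stood at 47.6 and 30.2 CPM.

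**Figure D1:**
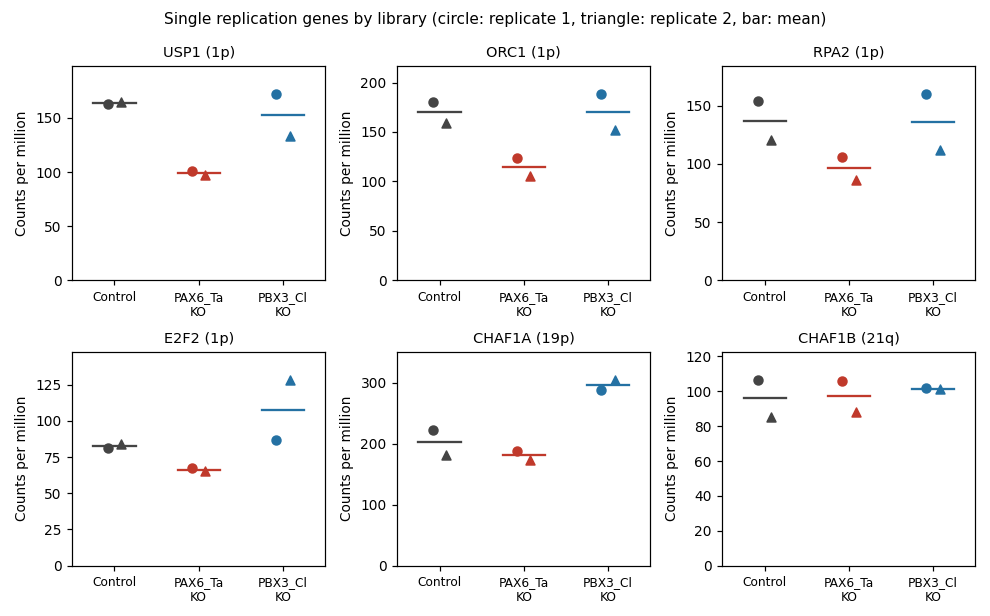
Level in CPM of USP1, ORC1, RPA2, E2F2, CHAF1A and CHAF1B in each library (circle replicate 1, triangle replicate 2, bar the mean of the group), with the chromosome arm in each title. PAX6_Ta KO is lowest for the 4 genes on 1p, and PBX3_Cl KO is highest for CHAF1A.

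The 3 members with the lowest log2 fold changes in PAX6_Ta KO, USP1, ORC1 and RPA2, shared a chromosome arm, which the choice of genes did not use. RFC3 (-0.38, on 13q) and CDC45 (-0.34, on 22q) came next, ahead of E2F2. On GRCh37, ORC1 (chr1:52838501-52870095), RPA2 (chr1:28218035-28241257), E2F2 (chr1:23832930-23857725) and USP1 (chr1:62901968-62917475) are the 4 members on 1p, an arm singled out after the values were seen. Their log2 fold changes in PAX6_Ta KO were -0.57, -0.51, -0.32 and -0.72, a median of -0.54, and for each of them both libraries lay below Control. The 757 tested coding genes of 1p had a median log2 fold change of -0.31 in PAX6_Ta KO and of 0.0004 in PBX3_Cl KO. The surrounding genes within 5 megabases had medians in PAX6_Ta KO of -0.40 around USP1 (26 coding genes), -0.44 around ORC1 (42), -0.37 around RPA2 (131) and -0.37 around E2F2 (119). With the arm median taken out, the values in PAX6_Ta KO became -0.26 for ORC1, -0.20 for RPA2, -0.004 for E2F2 and -0.41 for USP1 (edgeR adjusted p = 0.288), and no member was called in any of the 3 comparisons. The 31 members on other arms had a median of -0.002 in PAX6_Ta KO, and none was called.

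CHAF1A and MCM7 also lay on arms that stood away from 0. CHAF1A is on 19p (chr19:4402637-4445015 on GRCh37), where 493 coding genes had a median log2 fold change of 0.34 in PBX3_Cl KO and 0.05 in PAX6_Ta KO. With the arm median taken out, CHAF1A in PBX3_Cl KO was at 0.22 (edgeR adjusted p = 0.691). MCM7 is on 7q (chr7:99689856-99699563 on GRCh37), where 419 coding genes had medians of -0.24 in PAX6_Ta KO and 0.37 in PBX3_Cl KO. With those taken out MCM7 stood at 0.18 and 0.003. For CCNE2 in PAX6_Ta KO the arm (8q) median was 0.25 and the remainder 0.19. CDC45 and RFC3 lay on arms near 0 in PAX6_Ta KO (0.01 and -0.005) and kept values of -0.36 and -0.37. The 82 coding genes within 5 megabases of CDC45 had a median of -0.13 there.

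Over all 35 genes the spread of the log2 fold changes shrank when arm medians were taken out. The SD across genes went from 0.26 to 0.20 in PAX6_Ta KO, from 0.21 to 0.17 in PBX3_Cl KO, and from 0.31 to 0.22 between the knockouts. The gene's change and its arm's median had a Pearson r across the 35 genes of 0.67 in PAX6_Ta KO and 0.56 in PBX3_Cl KO, and a Spearman rho of 0.50 and 0.35. These are descriptions: genes of 1 library and arm are not independent, and the comparisons share the Control libraries. The plot of changes against arm medians shows most members on arms near 0 and few on arms far from it.

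Compared directly, PAX6_Ta KO and PBX3_Cl KO differed at 1 of the 35 genes. None was called higher in PAX6_Ta KO, where 5.26% of all tested genes were, and 1 was called lower, where 6.71% were. That gene was CHAF1A, with a log2 difference (PAX6_Ta KO minus PBX3_Cl KO) of -0.71 (SE 0.20, edgeR adjusted p = 0.036), or a level 0.611 times that of PBX3_Cl KO. It lost the call with any 1 of the 6 libraries left out, at edgeR adjusted p from 0.050 to 0.293, with log2 differences of -0.65 to -0.78. Without PBX3_Cl KO replicate 1 the adjusted p was 0.0501, and with the arm median taken out the difference was -0.42 (edgeR adjusted p = 0.245). E2F2 (-0.69, edgeR adjusted p = 0.055), USP1 (-0.62, 0.062), ORC1 (-0.57, 0.095) and RPA2 (-0.50, 0.202) came next and did not pass. With the replicate block these 4 had adjusted p of 0.028, 0.021, 0.018 and 0.037 from edgeR and passed beside CHAF1A (0.010). The block called 2205 of all 20746 genes lower in this comparison. MCM7 had a log2 difference of -0.42 (edgeR adjusted p = 0.344). Among genes higher in PAX6_Ta KO the first was POLE2, at 0.48 (edgeR adjusted p = 0.228). CCNE2, TYMS and PRIM1 followed at 0.42, 0.43 and 0.42.

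Some differences between the knockouts turned on PBX3_Cl KO replicate 1. Without it, PRIM1 (1.08), POLE2 (0.88) and TYMS (0.83) were called higher in PAX6_Ta KO, at edgeR adjusted p of 0.009, 0.018 and 0.020, and E2F2 lower (-0.91, 0.009). Without PBX3_Cl KO replicate 2 the log2 difference of PRIM1 was -0.02 and that of POLE2 0.18, neither called.

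Within a group the members moved together between libraries. Replicate 2 was below replicate 1 in CPM for 26 of the 35 genes in Control, 29 in PAX6_Ta KO and 27 in PBX3_Cl KO, with median log2 differences of -0.17, -0.13 and -0.29. Over all tested genes the medians were 0.01, -0.01 and 0.01. The summed level of the 35 genes was 7289 and 6274 CPM in Control, 6842 and 6020 in PAX6_Ta KO, and 7524 and 6695 in PBX3_Cl KO. The step between the libraries of a group was thus larger than the step between groups. For the PBX3_Cl KO genes, replicate 2 stood at 0.48 times replicate 1 for PRIM1 and at 0.60, 0.63 and 0.64 times for RFC3, TYMS and POLE2, but at 1.76 times for CDT1 and 1.49 times for E2F2. What sets the libraries of a group apart was not tested.

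Other genes of the pathway were counted from lists. Of 48 tested replication proteins outside the 35, none was called higher and 2 were called lower in PAX6_Ta KO. Of all tested genes 7.21% and 4.21% were. In PBX3_Cl KO none was called higher and 1 lower, where 6.28% and 2.69% of all genes were. With the replicate block the counts were 1 higher and 7 lower in PAX6_Ta KO, beside 2028 and 1520 of all 20746 genes. They were 2 higher and 1 lower in PBX3_Cl KO, beside 1922 and 876. DNA2, a nuclease and helicase of fragment processing, was lower in both, at log2 fold changes of -0.68 (edgeR adjusted p = 0.042) and -0.68 (edgeR adjusted p = 0.049). Both calls of DNA2 ended with DESeq2 (adjusted p = 0.060 and 0.064) and with the arm median taken out (edgeR adjusted p = 0.070 and 0.104). The 56 coding genes within 5 megabases of DNA2 had medians of -0.31 in PAX6_Ta KO and -0.48 in PBX3_Cl KO. RAD18, which ubiquitinates PCNA at the residue that USP1 clears, was lower in PAX6_Ta KO at -0.79 (SE 0.20, edgeR adjusted p = 0.024). It stood at 103 and 102 CPM in Control, 59.1 and 59.5 in PAX6_Ta KO, and 102 and 74.0 in PBX3_Cl KO. The arm of RAD18, 3p, had a median of -0.20 in PAX6_Ta KO, and with it taken out RAD18 stood at -0.59 (edgeR adjusted p = 0.102).

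Of 26 tested regulators of S-phase entry, 3 were called higher and 3 lower in PAX6_Ta KO, where 7.21% and 4.21% of all genes were, and 1 higher and 1 lower in PBX3_Cl KO, where 6.28% and 2.69% were. With the replicate block the counts were 3 and 6, and 3 and 2, beside 2028 and 1520, and 1922 and 876, of all 20746 genes. The list had median log2 fold changes of -0.08 and 0.01, and its difference from the 35 genes was not tested. CDKN1A, the inhibitor p21, was higher in both, at 1.80 (edgeR adjusted p = 0.0018) and 1.87 (edgeR adjusted p = 0.0017). CDK6, a cyclin D kinase, was lower in PAX6_Ta KO at -1.04 (edgeR adjusted p = 0.005) and stood at -0.01 (edgeR adjusted p = 0.991) in PBX3_Cl KO. SKP2, a ubiquitin ligase subunit that targets CDK inhibitors, was lower in PAX6_Ta KO at -0.84 (edgeR adjusted p = 0.017) and stood at -0.69 (edgeR adjusted p = 0.053, and 0.023 with the replicate block) in PBX3_Cl KO. With the median of its arm, 5p, taken out, SKP2 in PAX6_Ta KO was at -0.52 (edgeR adjusted p = 0.156), no longer called. CDKN1C was higher in PAX6_Ta KO at 1.55 (edgeR adjusted p = 0.0022), and so was the repressor E2F8 at 0.64 (edgeR adjusted p = 0.046). CCND1, a D-type cyclin, was lower in PBX3_Cl KO at -2.14 (edgeR adjusted p = 0.004). Its Control libraries lay far apart, at 7.53 and 19.0 CPM, and the PBX3_Cl KO libraries stood at 3.47 and 2.53 CPM. CDKN1C and E2F8 are on 11p, whose median was 0.62 in PAX6_Ta KO. With it taken out CDKN1C stood at 0.93 (edgeR adjusted p = 0.047), still called, and E2F8 at 0.016 (edgeR adjusted p = 0.985), no longer called. In PBX3_Cl KO E2F8 stood at 0.62 (edgeR adjusted p = 0.062, and 0.027 with the replicate block).

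Of 16 nucleotide and histone supply genes, edgeR without the block called ADA, adenosine deaminase, and no other, higher in both knockouts at 1.86 (edgeR adjusted p = 0.0008) and 2.04 (edgeR adjusted p = 0.0005). Over all tested genes, edgeR without the block called 7.21% higher and 4.21% lower in PAX6_Ta KO, and 6.28% and 2.69% in PBX3_Cl KO. In PAX6_Ta KO edgeR also called 2 genes of this list lower with the replicate block, where 1520 of all 20746 genes were. Of 25 G2/M genes none was called in PAX6_Ta KO by edgeR without the block or by DESeq2. DESeq2 called 1481 of all genes higher and 842 lower there. At an unadjusted p below 0.05, 4 were lower and none higher, where 2105 and 2605 of all genes were. With the replicate block edgeR called 2 G2/M genes lower, beside the 1520 of all genes. In PBX3_Cl KO CDK1, the mitotic kinase, was lower at -0.93 (edgeR adjusted p = 0.026). CDK1 stood at 168 and 167 CPM in Control and at 109 and 66.1 in PBX3_Cl KO. With the median of its arm, 10q, taken out it was at -0.84 (edgeR adjusted p = 0.049), still called. The 17 coding genes within 5 megabases of CDK1 had a median of -0.43 in PBX3_Cl KO. The G2/M genes had medians of -0.06 and -0.07, beside -0.05 and 0.003 for the 35 replication genes.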

How the data were processed

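The authors deposited a table of raw gene counts, made per the labels and the submitters' processing notes from stranded total RNA libraries (Collibri kit) with Cutadapt 3.4, STAR and DESeq2 on GRCh37. No source used here names the STAR or DESeq2 version or the strand setting of the counting. The deposited comparison tables hold the authors' log2 fold changes, standard errors and p-values and were not used. Of the count columns, 6 matched labelled samples and 4 matched none and were not used. The 35 genes and all lists were chosen with earlier results of these data known.

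Counts were filtered with filterByExpr (20746 genes kept; 17198 of 52088 entries had no count), TMM-scaled and fitted for 3 groups with edgeR 4.0.16 (glmQLFit, glmQLFTest; R 4.3.3, limma 3.58.1), with Benjamini-Hochberg adjustment over all tested genes and a threshold of 0.05. DESeq2 1.42.0 was an alternative. The scripts were tested on simulated data. Intervals are at 95% and unadjusted. Full statistics are given for members called in any comparison and for the 5 of largest change in each, and from other lists for at most 5 called genes per comparison. Arm medians use coding genes of GENCODE lifted to GRCh37, and an arm needs 20 genes. Levels per length use the canonical transcript. Sequences are RefSeq's (GRCh38.p14).

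The main fit had no term for the replicate number, so its calls and adjusted p ignore any pairing. The replicate number entered as a block only in an alternative fit. Replicate 2 less replicate 1 correlated across genes between groups at 0.39 (Control and PAX6_Ta KO), 0.21 (Control and PBX3_Cl KO) and 0.38 (the knockouts). The block rests on these data, since the labels name no shared batch. Of the 35 genes, 11 overlap another coding gene, where reads may be shared.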

Additional observations from a re-analysis of the deposited data

Results flagged for a closer look

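CHAF1A, the large subunit of chromatin assembly factor 1, was the 1 replication gene whose change against Control differed between the knockouts by a test of the difference itself, fitted without the replicate block: PAX6_Ta KO minus PBX3_Cl KO was -0.71 on the log2 scale (SE 0.20, edgeR adjusted p = 0.036). The call was lost with any 1 of the 6 libraries left out (edgeR adjusted p from 0.050 to 0.293) and with the arm median taken out (-0.42, edgeR adjusted p = 0.245). In the fit with the replicate block 5 replication genes (CHAF1A, E2F2, USP1, ORC1 and RPA2) differed between the knockouts. All 5 were lower in PAX6_Ta KO, where 2205 of all 20746 genes were. Against Control CHAF1A stood at -0.16 (PAX6_Ta KO) and 0.55 (PBX3_Cl KO). Groups of 2 libraries are too small for a check of single samples that stand apart.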

How the results depend on the processing

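Each comparison was repeated under 14 alternatives. Of the 35 genes, 27 were called in none of the 15 fits of any comparison. The number of replication genes called in PAX6_Ta KO against Control (1) became 0 with DESeq2 size factors or arm medians taken out, 2 with only the 2 groups compared, and 0 to 2 when 1 library was left out. In PBX3_Cl KO against Control (0) it was 0 to 1 without 1 library. Between the knockouts (1) it became 0 with DESeq2 size factors, with only the 2 groups compared or with arm medians out, 2 with no filter on low counts, and 0 to 4 without 1 library. With the replicate block, edgeR called 3, 1 and 5 replication genes in these comparisons, and 2798 genes of all in PBX3_Cl KO against Control (1860 without the block) and 3877 between the knockouts (2483 without). In PAX6_Ta KO against Control the block called 2028 of all genes higher and 1520 lower (1496 and 874 without). The block changed no other call among the 35. Leaving out 1 library, the genes called among all tested ran from 1375 to 3368 in PAX6_Ta KO against Control and from 1431 to 2818 between the knockouts, and the median of the 35 from -0.15 to 0.12 in PBX3_Cl KO against Control and from -0.20 to 0.039 between the knockouts.

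Among the 10 genes given with full statistics the following values changed sign, none of them called. In PBX3_Cl KO against Control, ORC1 became -0.079 and CCNE2 -0.065 with upper-quartile factors, -0.014 and -0.0018 with no filter, -0.037 and -0.025 with the stricter filter, and ORC1 -0.0023 with the replicate block. With arm medians out, MCM7 became 0.18 in PAX6_Ta KO against Control and 0.18 between the knockouts, and POLE2 -0.090 in PAX6_Ta KO against Control. Without 1 library, the ranges against Control were -0.24 to 0.14 for MCM7 and -0.15 to 0.40 for FEN1 in PAX6_Ta KO. In PBX3_Cl KO they were -0.20 to 0.15 for ORC1, -0.13 to 0.12 for CCNE2, -0.33 to 0.23 for RPA2, -0.64 to 0.14 for RFC3 and -0.33 to 0.076 for USP1. Between the knockouts they were -0.52 to 0.26 for RFC3 and -0.40 to 0.028 for FEN1. A fit that left a group with 1 library assumed that it varied like the others. The cause of these changes was not tested.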
